A study of Mus musculus with 2 samples.

Results

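The regions described here are distal open chromatin sites inside very long genes of the mouse cerebral cortex. They are the peaks of DNase I cutting that lay more than 1 kb from every annotated transcription start site (TSS), outside coding sequence, with their midpoint in a protein-coding gene of at least 500 kb and with a GC content of at least 40% in their central 200 bp. Replicate 1 held 2985 of them among 71313 peaks on chromosomes 1 to 19 (4.19%), and replicate 2 held 5707 among 108103 (5.28%), which makes 8692 of 179416 peaks in both libraries. Position, gene length and base composition chose them, and no signal value did. The very long genes numbered 218 of 20807 protein-coding genes (1.05%), with lengths of 502 to 4435 kb and a median of 733 kb, and 55 of them reached 1 Mb. Together they covered 186 Mb.

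The tissue was left cerebral cortex of adult male B6CASTF1/J mice aged 18 to 20 months. B6CASTF1/J is a first-generation hybrid of a C57BL/6 strain and the wild-derived CAST strain, while the reference genome comes from C57BL/6J, so regions whose CAST allele has diverged may be under-called. The series holds 1 group of 2 DNase-seq libraries, labelled biological replicates 1 and 2, with separate tissue samples under 1 donor entry. Whether these came from 2 animals is not given, and the spread between libraries may be technical. With no second condition no test between conditions was made, and values are given for each library with the mean ± SD (n = 2).

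DNase-seq digests nuclei with the enzyme DNase I and reads where it cut, so that DNA free of nucleosomes, such as promoters, enhancers and insulators, appears as a peak, and a short protected stretch within a peak, called a footprint, marks DNA shielded from the enzyme. The longest mammalian genes consist almost wholly of introns, and many encode cell adhesion proteins, ion channels, receptors and scaffolds of neurons. Introns of such genes are known to hold enhancers of the host gene or of its neighbours, internal promoters and sites of CTCF, the protein that anchors chromatin loops.

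The tissue label was checked on promoter peaks, with genes that do not tell cortex from other brain regions. Both libraries had one at the neuronal genes Snap25, Rbfox3, Slc17a7 and Gad1 and at the myelin gene Mbp, and neither had one at the liver gene Alb, the heart muscle gene Myh6 or the posterior body gene Hoxa9. The main lists also had none at the astrocyte gene Gfap, the microglial gene Csf1r or the endothelial gene Cldn5, and the astrocyte gene Slc1a3 had 0 in replicate 1 and 2 in replicate 2. The cell type in which a region was open was not measured in this whole tissue, and fewer cells of a type and weaker opening in each cell cannot be told apart.

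The strongest regions found in both libraries are shown first, because their protected bases can be read and 4 of the 5 printed hold a common block of letters. The sequences below are the central 200 bases of 5 of the 6 strongest shared regions (1 for each gene), read 5′ to 3′ on the plus strand of the reference genome GRCm38.p6 (mm10). Capitals mark bases that lay inside footprints of both libraries.
Camta1, chr4:151141641-151141840: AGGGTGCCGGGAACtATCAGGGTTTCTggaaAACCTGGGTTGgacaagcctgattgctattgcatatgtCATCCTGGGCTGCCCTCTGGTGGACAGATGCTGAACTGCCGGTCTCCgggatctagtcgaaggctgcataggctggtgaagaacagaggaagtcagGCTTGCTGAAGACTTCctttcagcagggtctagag
Fam155a, chr8:9233421-9233620: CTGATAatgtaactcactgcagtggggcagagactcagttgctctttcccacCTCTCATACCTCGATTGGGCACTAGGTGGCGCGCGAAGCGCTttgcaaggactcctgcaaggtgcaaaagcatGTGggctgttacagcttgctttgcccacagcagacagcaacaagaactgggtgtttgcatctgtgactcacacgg
Rasgef1b, chr5:99248571-99248770: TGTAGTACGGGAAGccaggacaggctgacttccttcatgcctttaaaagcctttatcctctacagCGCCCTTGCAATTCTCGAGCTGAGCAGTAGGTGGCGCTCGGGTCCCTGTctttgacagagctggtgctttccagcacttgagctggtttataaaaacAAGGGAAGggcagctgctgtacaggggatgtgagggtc
Fgfr2, chr7:132551861-132552060: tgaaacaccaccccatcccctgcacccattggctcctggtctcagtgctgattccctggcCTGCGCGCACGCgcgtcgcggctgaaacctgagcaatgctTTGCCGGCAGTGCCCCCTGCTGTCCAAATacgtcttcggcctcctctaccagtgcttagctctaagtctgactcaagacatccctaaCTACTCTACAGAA
Gm20388, chr8:121585491-121585690: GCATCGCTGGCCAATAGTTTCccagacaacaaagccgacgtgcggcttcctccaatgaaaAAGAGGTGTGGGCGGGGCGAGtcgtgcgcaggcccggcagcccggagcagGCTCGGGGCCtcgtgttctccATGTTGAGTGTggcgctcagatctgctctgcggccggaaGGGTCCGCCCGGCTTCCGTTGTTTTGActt

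Of the 5, the Camta1 region had the highest deposited signal, 12.2 in replicate 1 and 6.90 in replicate 2 (9.53 ± 3.72). It lay in an intron of Camta1, which encodes a calmodulin-binding transcription activator, 720 kb from the 5′ end of the gene. The Fam155a region had 9.40 and 5.40 (7.40 ± 2.83), and its host encodes a subunit of the sodium leak channel. The Rasgef1b region, in a gene for a Ras exchange factor, had 9.54 and 5.03 (7.29 ± 3.19). The region in the annotated span of Fgfr2, a fibroblast growth factor receptor gene, had 7.55 and 5.02 (6.28 ± 1.79). That span of 2961 kb contains 29 other protein-coding genes. The region lay 571 kb from the 5′ end of the span and cannot be assigned to Fgfr2 itself. The Gm20388 region had 10.4 and 8.29 (9.32 ± 1.46). A second region in Gm20388, at chr8:121113401-121113620, had 8.29 and 5.25 and is not printed. The signal of replicate 1 was the higher one in all 6. None of the 6 overlapped an exon. The nearest TSS of any gene lay 12146 bp from the Camta1 region, 16031 bp from Fam155a, 4167 bp from Rasgef1b and 24358 bp from Fgfr2. For the Gm20388 regions it lay at 3696 bp and, for the second, 2551 bp. All 6 were nearer to a TSS than the median long-gene region, at 36855 bp in replicate 1 and 41844 bp in replicate 2.

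A block of protected bases with the letters of a relaxed CTCF core (7 fixed letters in 11 bases) stood in 4 of the 5 sequences. In Camta1 it began at base 81 of the window on the minus strand, in Fgfr2 at base 112 on the minus strand, in Rasgef1b at base 90 on the plus strand and in Fam155a at base 72 on the plus strand, counted from 1 at the left end of the window. In each of the 4 regions all 11 bases of the match lay inside footprints of both libraries. The Gm20388 region held no match. An AP-1 match, TGANTCA, in Fgfr2 and another in Fam155a had 0 of their 7 bases in a footprint of both libraries. The E-box CAGATG at base 94 of the Camta1 window lay inside such footprints with all 6 bases, and another in Fam155a had 0 of 6. An E-box CAGCTG in Rasgef1b and the SOX letters ACAAAG in Gm20388 also had 0 of their 6 bases there. The relaxed core was written down after these sequences had been read, so its presence in them is a description.

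Density differed widely among the long genes and ordered them much alike in both libraries. The median gene had 1.29 regions per 100 kb of gene in replicate 1 and 2.76 in replicate 2 (2.02 ± 1.04). The interquartile range ran from 0.666 to 2.26 in replicate 1 and from 1.61 to 4.31 in replicate 2. In number, the median gene held 10 and 21.5 regions. In replicate 1, 6 genes held none, and in replicate 2 only Skint5 held none. Across the 218 genes density in replicate 1 and density in replicate 2 had a Pearson correlation of 0.91 and a Spearman correlation of 0.93, as a description over genes that share the annotation and the rule. Replicate 2, whose main list is the longer one, had a higher density in 217 genes, and Skint5 was at 0 in both. When only the 71313 strongest peaks of replicate 2 were kept, 126 genes held more regions in replicate 2, 63 held more in replicate 1 and 29 held equal numbers.

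**Figure D1:**
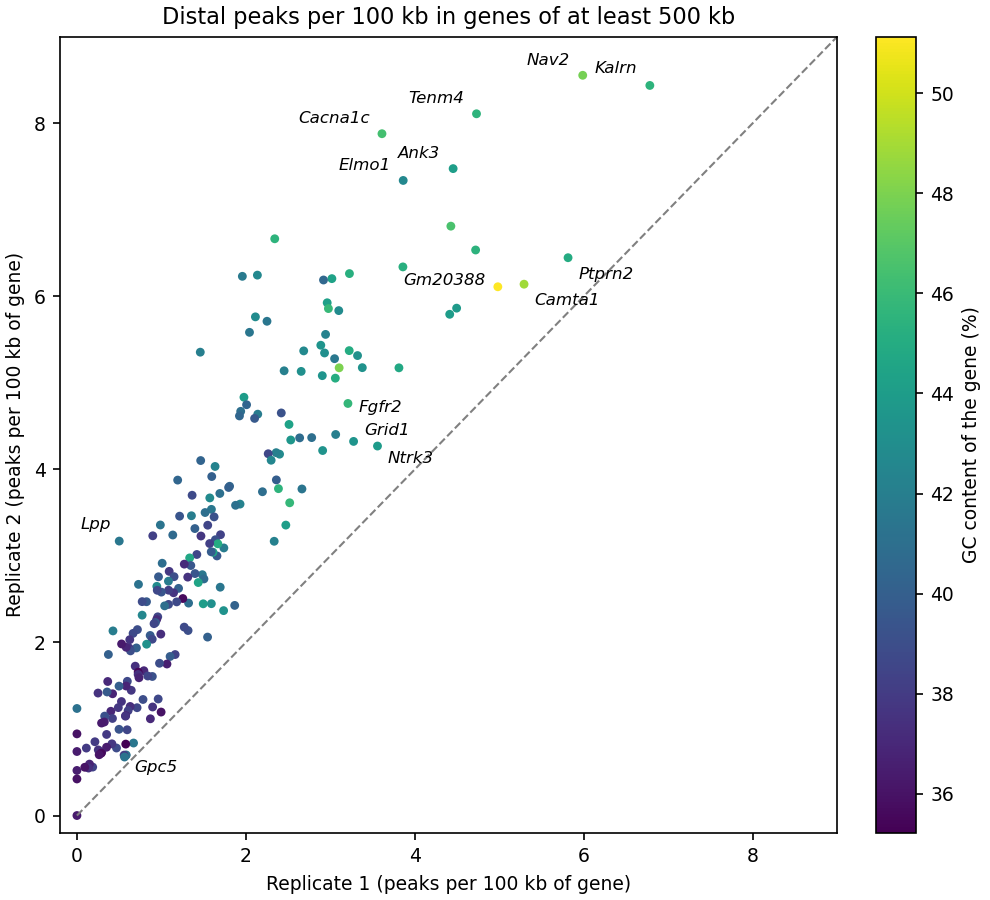
Distal regions per 100 kb of gene in replicate 1 (x axis) and replicate 2 (y axis), 1 point for each of the 218 genes, coloured by the GC content of the gene in percent, with the line of equality dashed. No gene lies below the line, Kalrn reaches 6.78 and 8.44, and the densest genes are among those with higher GC content.

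Kalrn, which encodes kalirin, a signalling protein of dendritic spines, was the densest gene. It held 41 regions in replicate 1 and 51 in replicate 2 over 604 kb (chr16:33969073-34573532), or 6.78 and 8.44 per 100 kb (7.61 ± 1.17). Nav2, a neuron navigator gene of neurite outgrowth, followed with 42 and 60 regions (5.99 and 8.55 per 100 kb). These genes exceeded the upper quartile of all long genes in both libraries, as did the other 8 of the densest 10. The 10 were picked by their mean density over both libraries, so this was nearly given by the choice.

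Tenm4, a teneurin adhesion gene, held 35 and 60 regions (4.73 and 8.11 per 100 kb), and Kirrel3, a synaptic adhesion gene of the immunoglobulin family, held 26 and 36 (4.72 and 6.54). Ank3, whose product ankyrin-G organises the axon initial segment, held 28 and 47 (4.45 and 7.48). Cacna1c, which encodes the pore of an L-type calcium channel, held 22 and 48 (3.61 and 7.88). Slit3, a secreted axon guidance ligand, held 26 and 40 (4.43 and 6.81), and Elmo1, which acts in Rac activation, held 20 and 38 (3.86 and 7.34). Camta1 held 50 and 58 (5.29 and 6.14), within a span that also holds 4 other protein-coding genes. Ptprn2, a phosphatase-like protein of dense-core vesicles, held 46 and 51 (5.81 and 6.45), a rank that rested on tight runs of weak peaks in replicate 1. Of the 10 densest genes of each library, 7 were the same, and of the 20 densest, 14.

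At the other end, some long genes were almost free of these regions. Erbb4, a neuregulin receptor gene of 1076 kb, held 1 region in replicate 1 and 6 in replicate 2 (0.0929 and 0.558 per 100 kb). The transcription factor gene Foxp2 held 0 and 4, Malrd1 held 1 and 4, Zfp804b and the glycosyltransferase gene Mgat4c each held 0 and 3, and Skint5, of an immunoglobulin-like family, held 0 and 0. All 6 are GC-poor, with 22.2 to 31.7% of their length open to the rule. The value of 0 here counts peaks on these lists, and signal under the authors' threshold was not analysed.

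The share of a gene that the rule could choose at all, called choosable here, is the sequence more than 1 kb from a TSS, outside coding sequence and assembly gaps, and with a local 200 bp GC content of at least 40%. It was 50.8% of the summed span and 78.1% of Kalrn, but 26.9% of Erbb4. Per 100 kb of choosable sequence the median gene had 2.69 regions in replicate 1 and 5.73 in replicate 2 (4.21 ± 2.15). Density per 100 kb of gene followed the GC content of the gene with a Spearman correlation of 0.78 and 0.77. Per choosable sequence it was 0.53 and 0.39, and with gene length the density per 100 kb of gene had a Spearman correlation of −0.13 and −0.12. These are descriptions across 218 genes, and the GC minimum of the rule enters the first pair.

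By choosable density Kalrn stayed first, with 8.68 and 10.8 regions per 100 kb, and several genes with a smaller choosable share than Kalrn moved up. Trpm3, which encodes a heat-sensing cation channel, had rank 2 by choosable density, against rank 17 by density per 100 kb of gene, with 5.44 and 11.5 regions per choosable 100 kb from 25 and 53 regions. Pcdh9, a protocadherin adhesion gene, had rank 10 by choosable density against 119 by gene, with 5.08 and 10.2 from 11 and 22 regions. Nrxn3, a presynaptic neurexin gene, had rank 9 against 47. The choosable share was 53.6% in Trpm3, 24.7% in Pcdh9 and 45.7% in Nrxn3. Trpm3 was not GC-poor among the long genes, with 40.6% GC beside a median of 40.1%. Erbb4 remained low, at 0.346 and 2.08 per choosable 100 kb (rank 210 of 218). Of the 20 densest genes by each measure, 11 were the same.

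Grouped by the role of the encoded protein, the long genes spread widely within every group. The 8 role lists were chosen with earlier results of these data known, and they do not cover all 218 genes. Kalrn, Ank3, Elmo1 and the ion channel gene Asic2 (3.86 and 6.34 per 100 kb), among others, are on none. The lists can overlap, as for Gpc5 and Npas3. Their medians stand beside 1.29 and 2.76 per 100 kb for all 218 genes, of which 98 lay above both library medians and 98 below both. Synaptic and neuronal adhesion genes were the largest list, with 42 members and medians of 1.37 and 2.90. Of these, 22 lay above both medians and 19 below both. They spanned Tenm4 at the top and Lrrtm4, a postsynaptic adhesion gene with 2 and 6 regions, at the bottom. Synaptic scaffold and release genes (14 members) had the highest list medians, 2.00 and 3.58, with 10 above and 3 below, and they reached down to Sntg1, a syntrophin gene with 2 and 8 regions.

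The listed ion channel genes (10 members) had medians of 1.73 and 3.15, with 5 above and 4 below. They ran from Cacna1c to Dpp10, an auxiliary subunit gene of potassium channels with 3 and 6 regions. Neurotransmitter receptor genes (7 members) had 1.16 and 2.60, with 1 above and 4 below. Their densest member was the delta glutamate receptor gene Grid1 with 25 and 33 regions, and their least dense was the kainate receptor gene Grik2 with 2 and 5. Axon guidance and growth factor genes (13 members) had 1.14 and 2.45, with 4 above and 7 below. Their extremes were Slit3 and Erbb4.

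Transcription and RNA-binding factor genes (12 members) had medians of 1.61 and 2.91, with 6 above and 5 below, between Camta1 and Foxp2. The list of intracellular enzymes and signalling (23 members) had 1.48 and 2.78, with 12 above and 10 below. It ran from Nav2 to the glypican gene Gpc5, which held 8 and 10 regions. Glypicans are cell surface proteins, so the name of this list does not hold for Gpc5 and Gpc6. The list named glial and vascular had 6 members, Pard3, Pard3b, Sox5, Sox6, Npas3 and Gpc5. It had the lowest medians in both libraries, 0.716 and 2.30, with 2 above and 4 below. The densest member was the polarity gene Pard3 with 17 and 32 regions. Expression was not measured, so the name of this list does not show that its members are restricted to glia or vessels. In every list the least dense and the densest member differed far more than any of the list medians did from the median of all long genes. A range over single genes tends to exceed a shift of a median, so this does not weigh role against gene.

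The longest annotated genes hold other genes inside them. Gm20388, a predicted gene of 4435 kb on chromosome 8, contains 71 other protein-coding genes, and it held 221 and 271 regions (4.98 and 6.11 per 100 kb). Fgfr2, annotated at 2961 kb, contains 29 others and held 95 and 141 (3.21 and 4.76). Ptprd, a receptor phosphatase gene of synapses, is 2271 kb long, contains none and held 18 and 38 (0.793 and 1.67). In all, 29 of the 218 genes contain another protein-coding gene, and a region there cannot be assigned to the host rather than to its inner genes. Without these 29 the median density was 1.27 and 2.76 per 100 kb. The 10 genes with the most regions held 21.9% of all region and gene pairs in replicate 1 and 16.7% in replicate 2.

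Long empty stretches ran between the regions. The median spacing between neighbours in a gene was 25.9 kb in replicate 1 and 16.7 kb in replicate 2 (21.3 ± 6.52), and 33.2% and 41.6% of regions had the next one within 5 kb. The longest stretch with no region in either library had a median of 124 kb per gene and exceeded 200 kb in 55 genes. It covered more than 50% of the gene in 11. In Foxp2 it was 306 kb (56.7% of the gene) and in Sntg1 504 kb (53.7%), while in Kalrn it was 43.8 kb (7.25%).

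**Figure D2:**
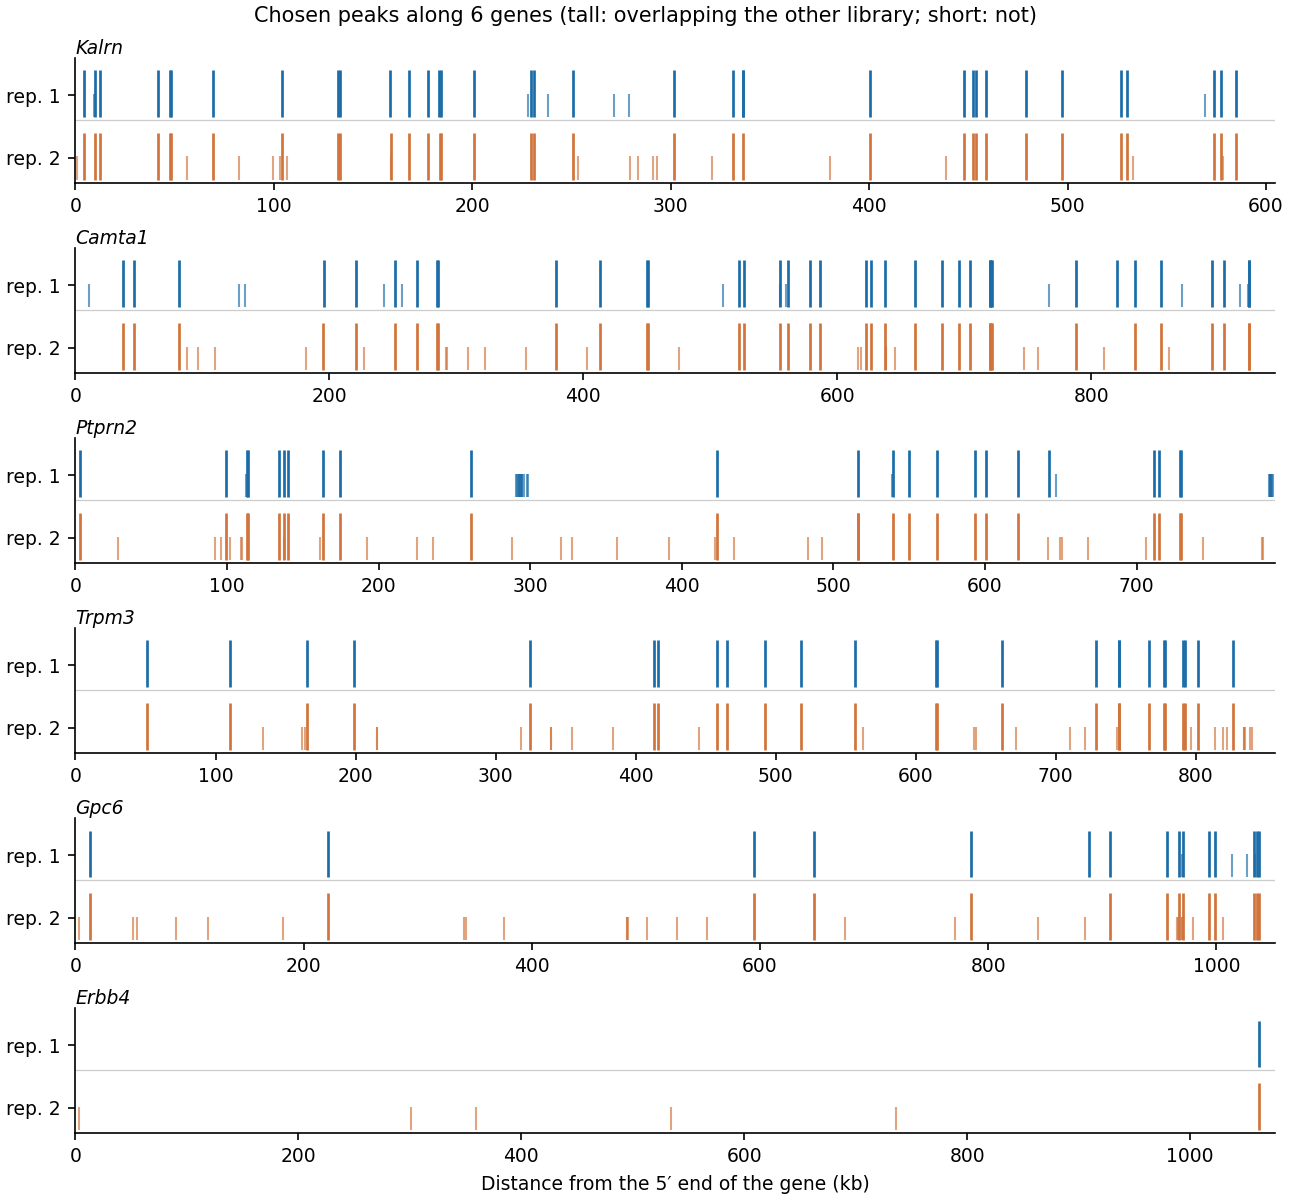
Position of each distal region along 6 genes, as distance in kb from the 5′ end of the gene, for replicate 1 (upper row) and replicate 2 (lower row) of each gene. Tall bars overlap a peak of the other library and short bars do not. Kalrn is filled along its whole length, Gpc6 mainly toward its 3′ end, Erbb4 holds 1 and 6 regions, and the short bars of replicate 1 in Ptprn2 form 2 tight runs.

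Density in very long genes was set beside that in shorter ones, with every gene length counted by the same rule. Pooled over genes, the long genes had 1.60 regions per 100 kb in replicate 1 and 3.06 in replicate 2 (2.33 ± 1.03). Genes of 250 to 500 kb had 2.13 and 3.94 (3.03 ± 1.28), genes of 100 to 250 kb 2.37 and 4.10, genes of 50 to 100 kb 2.37 and 3.82 and genes under 50 kb 2.16 and 3.16. The long genes were lowest in both libraries, in replicate 2 by little against genes under 50 kb. The SD between libraries holds the unequal lists, so it does not measure these differences within a library, which were not tested. Per 100 kb of choosable sequence they had 3.14 and 6.02, against 3.59 and 6.65 in genes of 250 to 500 kb, and in replicate 2 genes under 50 kb were lower still at 5.39. Around the length threshold, the 71 genes of 500 to 600 kb had 1.73 and 3.38 per 100 kb, and the 121 genes of 400 to 500 kb had 2.12 and 3.91.

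**Figure D3:**
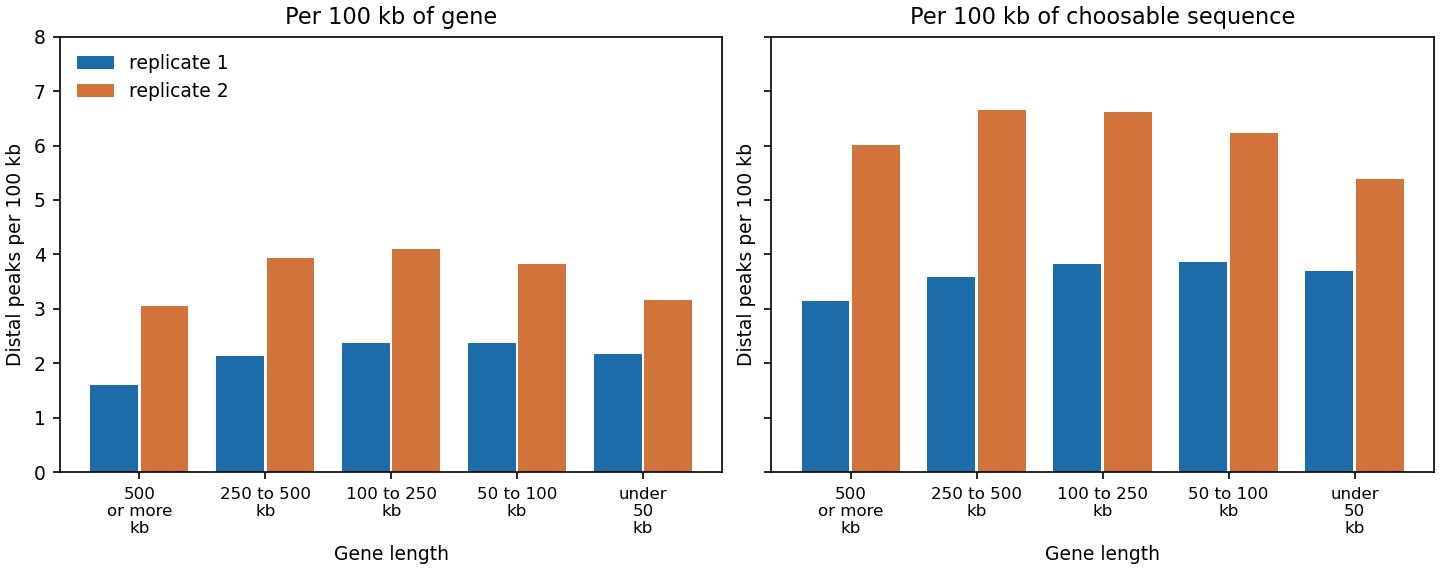
Pooled distal regions per 100 kb of gene (left panel) and per 100 kb of choosable sequence (right panel) by gene length, with 1 bar per library. Genes of 500 kb or more stand at 1.60 and 3.06 in the left panel and at 3.14 and 6.02 in the right panel.

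Along the gene, regions were spread over the whole length with small rises at both ends. The first 20% of the gene from the 5′ end held 21.5% of regions in replicate 1 and 20.2% in replicate 2 (20.8% ± 0.964), beside 19.7% of the choosable sequence. The middle 20% held 18.4% and 19.6%, beside 19.5% of the choosable sequence, and the last 20% held 21.7% and 21.6% (21.7% ± 0.0609), beside 21% of the choosable sequence. Relative to choosable sequence the first 20% stood at 1.09 and 1.02 times an even spread and the last 20% at 1.03 in both. In steps of 10% of the gene, the first step had 3.92 and 6.63 regions per choosable 100 kb and the last step 3.51 and 6.36. The 8 steps between ran from 2.79 to 3.32 in replicate 1 and from 5.54 to 6.50 in replicate 2, so the middle reached the level of the last step in replicate 2.

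The rise at the 5′ end was narrow. Between 1 and 10 kb from the 5′ end of the gene there were 5.25 regions per 100 kb in replicate 1 (103 regions) and 7.49 in replicate 2 (147 regions). From 10 to 50 kb there were 1.47 and 2.73, and beyond 500 kb 1.66 and 3.10, so the density from 10 kb onward was that of the rest of the gene. At the 3′ end the last 1 to 10 kb had 2.04 and 3.11 and the next 10 to 50 kb 2.06 and 3.67. With only regions more than 10 kb from every TSS, the first 20% of the gene held 18.8% and 18.4%. How much choosable sequence the first 20% held at that distance was not counted, so these shares cannot be set beside an even spread.

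**Figure D4:**
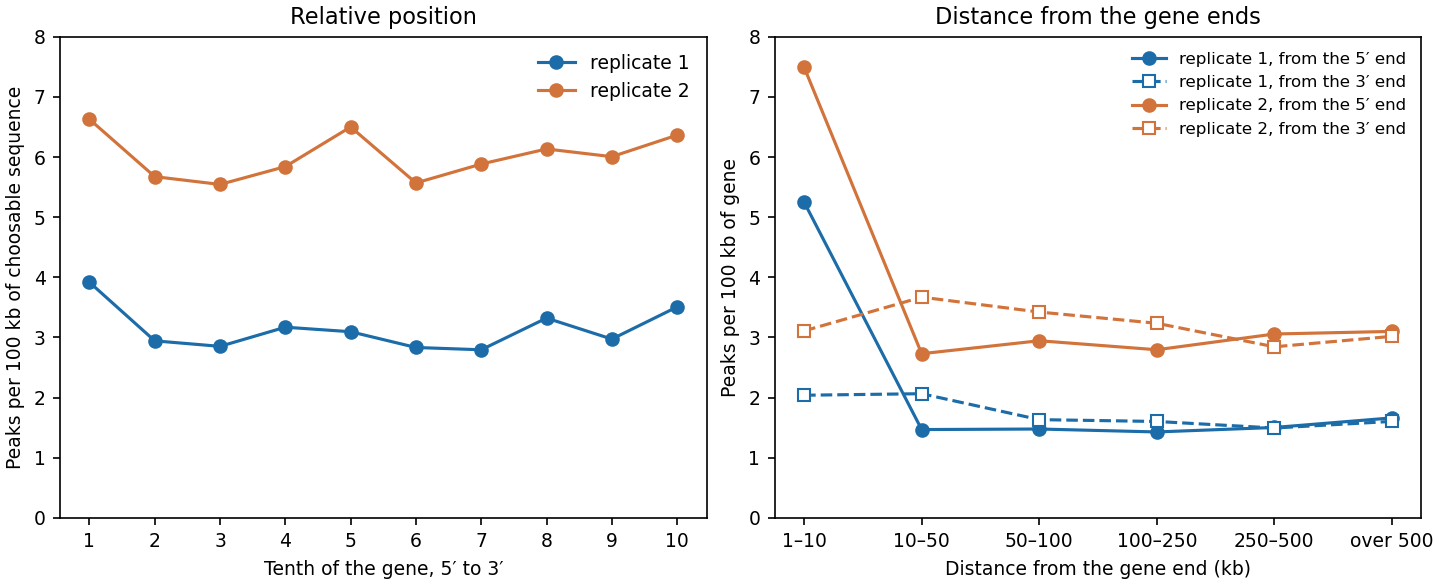
Left, distal regions per 100 kb of choosable sequence in each step of 10% of the gene from 5′ to 3′. Right, regions per 100 kb of gene by distance in kb from the 5′ end (filled circles, solid) and the 3′ end (open squares, dashed). The points at 1 to 10 kb from the 5′ end, 5.25 in replicate 1 and 7.49 in replicate 2, stand above the other distances of their library.

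Single genes departed from this even spread. Of the 112 genes with at least 10 regions in both libraries, 1 had more than 40% of its regions in the first 20% of the gene in both libraries, and 5 had more than 40% in the last 20% in both. The gene at the 5′ end was Grm7, a metabotropic glutamate receptor gene, with 50% of 10 regions there and 45.8% of 24. Without a run of 6 peaks in replicate 2 its share there was 27.8%. Grid1 had 52.0% of 25 and 36.4% of 33 in the first 20% of the gene, and 36.8% in replicate 1 without a run of peaks 1.48 kb from its 5′ end.

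Toward the 3′ end, the glypican gene Gpc6 had 73.7% of 19 regions and 45% of 40 in its last 20%. The overlapping genes Schip1 and Iqschfp, which share these regions, had 54.5% and 62.9%, and 53.3% and 58.5%. Without runs of peaks in replicate 2 these shares there were 45.8% and 43.3%. Adgrb3, an adhesion receptor gene of synapses, had 60% of 10 and 42.9% of 21, and Agbl4 had 42.9% of 21 and 50% of 38. All of these genes were picked by their shares, so the values describe them and carry no test.

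Most regions of replicate 1 were found again in replicate 2, and a smaller share of those of replicate 2 were found in replicate 1. A region counted as shared when at least 1 bp overlapped any peak of the other library's main list. By this count 87.7% of replicate 1 (2617) and 44.9% of replicate 2 (2565) were shared. Both shares rest on 1 overlap seen from a short and from a long list, and their SD of 30.2 therefore does not measure replicate error. Joined into distinct intervals, the regions of both libraries made 6072, of which 2526 (41.6%) were in both, 415 in replicate 1 only and 3131 in replicate 2 only.

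Sharing was nearly the same in genes under 500 kb and outside genes for replicate 1, at 85.9% and 88.3%. For replicate 2 the 44.9% in long genes stood below 50.8% in shorter genes and 52.0% outside genes. Peaks of replicate 2 were split at the quartiles of the signal of all distal peaks. From the weakest signal bin to the strongest, long genes had 11.5%, 27.0%, 58.1% and 93.3% shared, and shorter genes had 12.1%, 28.7%, 57.7% and 91.7%. In these bins long and shorter genes were within 2 percentage points of each other in replicate 2. Distal peaks outside genes had 13.8%, 39.5%, 69.9% and 95.6%, above the long genes in all 4 bins. In replicate 1 the same 4 bins had 77.4%, 87.3%, 94.7% and 98.8% in long genes, against 68.1%, 83.3%, 90.4% and 98.4% in shorter genes.

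Unshared regions were weak. In replicate 2 the median signal was 0.614 for unshared regions and 1.29 for shared ones, and in replicate 1 it was 0.696 and 1.00. Of the unshared regions, 51.6% of 368 in replicate 1 and 43.2% of 3142 in replicate 2 overlapped a peak of the other library's longer list. Unshared distal peaks of shorter genes did so in 56.6% and 45.6%, so the long-gene values were somewhat lower in both libraries. Against distal peaks outside genes they were lower in replicate 1 and higher in replicate 2. These differences were not tested. With the 71313 strongest peaks of each library, 76.8% and 63.9% of the long-gene regions were shared. The strongest region of replicate 1 without a partner lay in Gm20388 and its inner gene Ankrd11, a chromatin regulator (chr8:122906721-122906880, signal 4.07), and the longer list of replicate 2 held no peak there either. The strongest of replicate 2 without one lay in Gm37240 (chr3:85020221-85020460, signal 2.68), with a partner in the longer list of replicate 1.

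Sharing in replicate 2 also rose with GC content. It was 19.7% for regions of 40 to 42% GC and 81.7% at 60% or more, while replicate 1 ran the other way, from 92.5% to 78.1%. The median signal rose over the same bins in both libraries, from 0.838 to 1.13 in replicate 1 and from 0.667 to 1.17 in replicate 2. GC content and signal were not separated. Regions of replicate 2 alone averaged 46.4% GC, against 49.6% for its shared ones. At the GC threshold, the 107 and 563 regions of 40 to 42% had median signals of 0.838 and 0.667, and the 61 and 350 peaks of 38 to 40%, which the rule left out, had 0.858 and 0.677. In all, the GC minimum left out 113 and 633 distal peaks of these genes.

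Where 1 region of each library overlapped exactly 1 of the other (2516 pairs), the log2 signals had a Pearson correlation of 0.69 and a Spearman correlation of 0.68 across regions. The log2 ratio of replicate 1 over replicate 2 had a median of −0.24 and an SD of 0.66. The signals were within 2-fold of each other in 85.3% of pairs, more than 2-fold higher in replicate 1 in 4.61% and in replicate 2 in 10.1%. In shorter genes (15130 pairs) the median ratio was −0.05 and 86.0% were within 2-fold. How the authors scaled the signal is not stated, so a shift of the whole ratio between libraries has no interpretation here.

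By gene, the balance of the main lists ran from near equality to many more regions in replicate 2, whose list is longer. Over all regions and genes the log2 ratio of counts, replicate 1 over replicate 2, was −0.94. Among the 158 genes with at least 20 regions in both libraries together, the lowest ratios were those of Lpp, a focal adhesion gene, at −2.66 (3 and 19 regions), and Nkain2, a sodium pump interactor gene, at −2.50 (3 and 17). Next came Fhit, a nucleotide hydrolase gene, at −2.32 (6 and 30) and Dcc, the netrin receptor gene, at −2.09 (4 and 17). The highest were Ptprn2 at −0.15, Camta1 at −0.21, the neurotrophin receptor gene Ntrk3 at −0.26 (20 and 24) and Gm20388 at −0.29. With only the 71313 strongest peaks of each library these differences were mostly smaller. Lpp then held 3 and 9 regions, Fhit 6 and 9, Nkain2 3 and 4 and Dcc 4 and 4. Ptprn2 held 46 and 47, Ntrk3 20 and 22, Gm20388 221 and 216 and Camta1 50 and 35, so Camta1 had more in replicate 1.

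Among the 47 genes with at least 20 regions in replicate 1, a median of 88.9% of these were shared. All were shared in Magi2, Agbl4, Elmo1, Dlgap1 and Trpm3. Under 60% were shared in 2 genes, Ptprn2 (50%) and Gm37240 (57.4%).

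Both genes held tight runs of weak peaks, a feature defined after the values had been seen as at least 5 regions, each within 2 kb of the next. In Ptprn2 a run of 13 regions of replicate 1 filled 8.53 kb beginning 291 kb from the 5′ end, with signals of 0.139 to 0.356, and another of 7 filled 2.86 kb at the 3′ end. None of these 20 was shared. In Gm37240 runs of 9 and 6 regions in replicate 1 also had 0 shared. Without its runs Ptprn2 kept 26 regions in replicate 1, or 3.29 per 100 kb, and its rank in density was 14 in place of 4. The shared part of replicate 1 was then 88.5%, and the log2 ratio of counts −0.97. Gm37240 without runs had 84.4% shared. Replicate 1 had 5 such runs with 41 regions in all, and replicate 2 had 7 with 40 regions, in Nrxn3, Schip1 and Iqschfp, Cdk14, Grm7, Gm20388 and Ntm. What produced the runs was not tested.

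As a class, the regions in long genes were weaker than distal peaks in shorter genes and farther from any TSS. Their median deposited signal was 0.950 in replicate 1 and 0.807 in replicate 2 (0.879 ± 0.101), against 1.16 and 0.928 (1.04 ± 0.165) in shorter genes. Distal peaks outside genes had 1.12 and 0.801, so in replicate 2 the regions in long genes were not weaker than those. The strongest reached 12.2 and 8.29, against 46.6 and 32.7 in shorter genes. Median width was 173 and 200 bp, against 178 and 200 bp. The median distance to the nearest TSS was 36.9 and 41.8 kb, against 14.1 and 15.3 kb, and 17.8% and 21% lay more than 100 kb from any TSS, against 3.25% and 3.86%. The length minimum of the rule bears on these distances. The farthest region was 684 kb from a TSS, in replicate 2.

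In composition, the long-gene regions averaged 50.2% and 47.9% GC, against 52.2% and 50.1% in shorter genes, and 3.51 and 2.92 CpG per 200 bp, against 4.02 and 3.48. They touched an exon in 43 and 72 cases (1.44% and 1.26%), against 5.61% and 5.01%. No repeat sequence was found in 58.5% and 52.1%, against 55% and 50.9%. At least 1 footprint lay in 91.4% and 88.5%, against 92.4% and 89.5%, with 2.21 and 2.29 footprints per region, against 2.35 in both libraries. Footprints were frequent in unshared regions of long genes too, at 76.1% and 82.1%, against 93.6% and 96.3% in shared ones.

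Motif letters were counted on both strands of the central 200 bp and set beside the same count in shorter genes and in 454092 windows of 200 bp in the long genes that were choosable and clear of peaks. Those windows averaged 45.9% GC. The CTCF core, with 10 fixed letters in 12 bases, matched 2.58% of the long-gene regions in replicate 1 and 1.17% in replicate 2, against 4.27% and 2.38% in shorter genes and 0.0324% of the windows. The relaxed core, which includes every match of the longer one, matched 17.4% and 10.3%, against 22.8% and 14.6% in shorter genes and 3.94% of the windows. Matches of both were thus less frequent in long-gene regions than in those of shorter genes, in both libraries.

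The relaxed core went with signal. In the weakest signal bin of replicate 1 it matched 9.11% of long-gene regions and in the strongest 40.1% (489 regions), against 10.8% and 43.0% in shorter genes. In replicate 2 the same bins had 7.0% and 18.2%, against 8.36% and 22.2%. In replicate 2 it matched 16.6% of shared and 5.06% of unshared long-gene regions, while in replicate 1 it matched 17.0% and 20.4%. Within regions of 45 to 50% GC the relaxed core matched 16.7% and 10.2%, against 24.3% and 13.1% in shorter genes.

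Of the 13 motifs searched, 4 were more frequent in long-gene regions than in shorter genes in both libraries. The E-box CAGATG, bound by neuronal basic helix-loop-helix factors such as NEUROD, matched 29.1% and 29.2% of long-gene regions, against 24.7% and 26.2% in shorter genes and 17.1% of windows. The nuclear factor I site TTGGCA matched 20.5% and 20.8%, against 18.0% and 18.4% and 10.4% of windows. The AP-1 site TGANTCA, bound by FOS and JUN dimers, matched 16.7% and 21.1%, against 14.3% and 18.6% and 5.86% of windows. At 45 to 50% GC these 3 still matched more often in long genes in both libraries. CAGATG matched 31.6% and 29.1% there, against 25.5% and 26.9%, and AP-1 matched 18.1% and 22.5%, against 15.6% and 20.8%.

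AP-1 did not follow signal as the CTCF cores did. In the strongest signal bin of replicate 1 it matched 13.9% of long-gene regions, against 9.55% in shorter genes, and in the weakest 15.7%, against 15.5%. In replicate 2 it matched 21.9% in the strongest bin and 19.2% in the weakest. Unshared long-gene regions of replicate 2 had it in 23.2% and shared ones in 18.5%, while in replicate 1 the values were 9.24% and 17.7%. The libraries thus differed in direction, and the difference between them was not tested.

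The E-box CAGCTG matched 19.1% and 17.8% of long-gene regions, against 19.6% and 19.2% in shorter genes and 9.12% of windows. At 45 to 50% GC the direction turned, with 16.6% and 16.8%, against 15.0% and 16.3% in shorter genes. The SOX letters ACAAAG matched 14.7% and 15.7%, against 13.6% and 14.9% in shorter genes and 17.0% of windows. The nuclear receptor site AGGTCA matched 4.92% and 4.59%, against 6.76% and 5.94% and 12.7% of windows. Longer motifs of the EGR, RFX and CREB factors and the nuclear factor I palindrome each matched under 1% and were less frequent in long-gene regions than in shorter genes in both libraries. RFX matched 0.302% and 0.368%, against 0.439% and 0.512%, and the CREB motif 0.402% and 0.298%, against 0.626% and 0.512%. EGR matched 0.101% and 0.0876%, against 0.264% and 0.188%, and the palindrome 0.0335% and 0.0526%, against 0.0988% and 0.0727%, on 5 or fewer long-gene regions in each library. At 45 to 50% GC RFX and the palindrome were still lower in both libraries. The CREB motif there matched 0.597% and 0.345%, against 0.373% and 0.390%, and EGR 0.199% and 0.148%, against 0.197% and 0.154%. Both thus differed in direction between the libraries at that GC content. MEF2 matched 0.235% and 0.228%, against 0.181% and 0.314%, and so differed in direction between the libraries. The windows hold more repeat sequence (28.7% on average) than the regions (7.82% and 8.03%), and its part in these lower values was not tested. A match is a run of letters and does not show that a factor was bound.

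**Figure D5:**
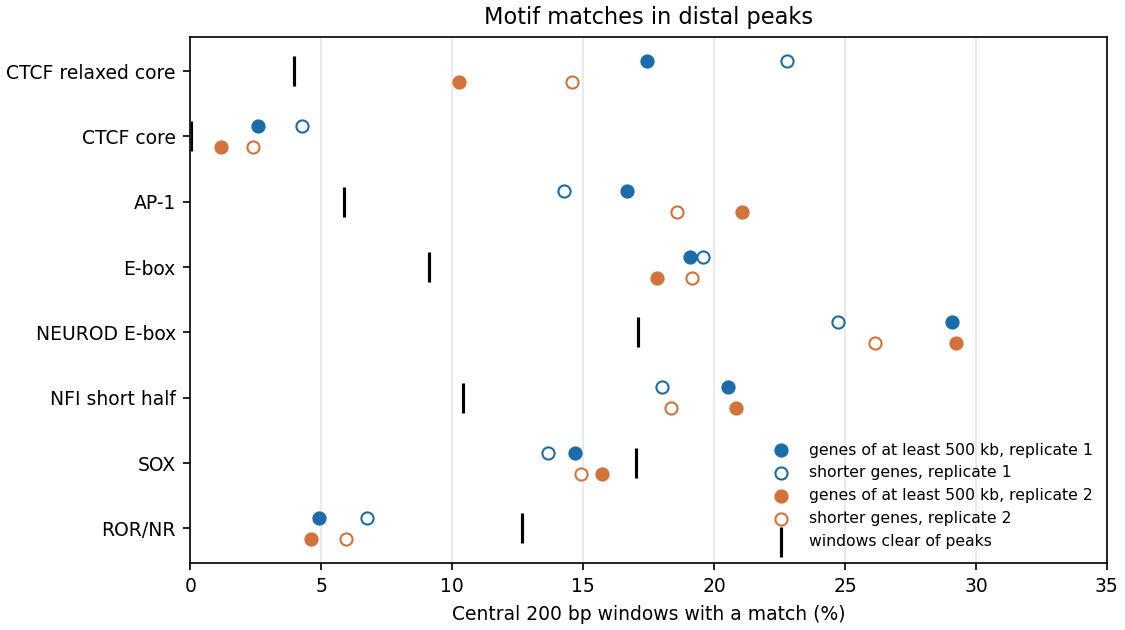
Share of central 200 bp windows, in percent, that hold a match on either strand. Filled circles are regions in genes of at least 500 kb, open circles are distal peaks in shorter genes, and black bars are windows of the long genes clear of peaks. For CAGATG, named NEUROD E-box, the long-gene regions stand at 29.1% and 29.2%, to the right of shorter genes at 24.7% and 26.2%.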

How the data were processed

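DNase-seq libraries of 1 group (replicates 1 and 2) were analysed. The authors called peaks (2 lists) and footprints in each library alone on mm10, per the accompanying deposited notes. The deposited signal is 1 value per peak, and its scaling is not stated. Aligner, callers and thresholds: not given in the sources used here. Footprint entries hold 1 constant value as deposited by the authors, so only their positions were used. Per-base false discovery rates were not used. Without read totals, which were not used, the number of peaks is the only view of depth, and counting intervals are left out.

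The shorter list of each library was the main one. Genes, TSS, exons and coding sequence came from the GENCODE M21 basic annotation, and base composition and repeats (soft-masked) from GRCm38.p6. All peaks lay inside its chromosomes. Density is regions per 100 kb, where a region in several long genes (16 in replicate 1, 41 in replicate 2) counts in each gene, for 3006 and 5754 pairs. Scripts used python 3.11.15, numpy 2.4.6, pandas 2.3.3 and matplotlib 3.10.9, and were checked on simulated data. No test was made, since the series holds 1 group.

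Named genes are the 10 densest and the 6 least dense, the 4 highest and 4 lowest log2 ratios of replicate 1 over replicate 2 among genes with at least 20 regions, the longest 3, and the extremes of 8 role lists. Genes named for position, choosable density, sharing, empty stretches and runs were chosen after their values were seen. Named regions are the 6 strongest shared ones and the strongest unshared one of each library. Members and lists were chosen with earlier results of these data known. Chosen after seeing the data were the relaxed CTCF core, the definition of runs, leaving out genes that contain others, and TSS of the full annotation. Alternatives varied the list, the GC minimum, gene length, TSS distance, repeat content and overlap rule, and left out each library.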

Additional observations from a re-analysis of the deposited data

How the results depend on the processing

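The median density of 2.02 regions per 100 kb was 3.92 with the longer lists, 0.603 with a GC minimum of 50% and 4.21 per 100 kb of choosable sequence, and moved by less than the SD between libraries under the other 9 alternatives. That SD reflects the unequal lists: with the same number of strongest peaks the densities were 1.29 and 1.45 (1.37 ± 0.111). The share of regions in the first 20% of the gene (20.8%) was 23.2% with a GC minimum of 50% and 18.6% for regions over 10 kb from every TSS. Choosable sequence was not counted under these settings, so neither value can be set beside an even spread. Relative to choosable sequence the share of 20.8% was 1.06 times an even spread. The median signal of 0.879 was 0.570 with the longer lists, 1.05 with the same number of strongest peaks and 0.995 with a GC minimum of 50%. The cause was not tested. The mean share overlapping the other library (66.3%) was 51.7% when 50% of both peaks had to overlap and 81.3% with partners from the longer list. The distance between the libraries here depends on the list lengths, so it is no yardstick for these moves. With the same number of strongest peaks the shares were 76.8% and 63.9%, and the source of the remaining distance was not tested. Leaving out 1 library gave densities of 1.29 to 2.76, shares in the first 20% of the gene of 20.2% to 21.5%, overlap shares of 44.9% to 87.7% and signals of 0.807 to 0.950. No paired analysis was possible because the series holds 1 group. Read depth was not known, so a region on only 1 list may lie under the threshold of the other library. Regions prone to mapping artefacts were not masked, and alleles were not told apart.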
